A study of Mus musculus with 3 samples.

Results

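The sites described here are the stronger DNase-accessible regions of mouse Müller cells that were called as peaks in replicate 3 and in neither of the other replicates. They were selected on the peak lists themselves: peaks of the 3 replicates were merged where they overlapped by 1 bp, and regions on the autosomes and X were kept where replicate 3 had a peak with a score of 35 or more and replicates 1 and 2 had none. This gave 4869 of 351961 merged regions, or 1.38%. They made up 4.44% of the 109711 regions with a replicate 3 peak of that score. Because peak calls and scores chose the sites, all values below are given as a description, and no test was made of them.

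Müller cells are the radial glia of the vertebrate retina. They span its whole depth, clear glutamate and potassium, and share many transcription factors with the progenitors from which they arise. DNase I cuts DNA where nucleosomes are displaced, so DNase-seq peaks mark mostly promoters, enhancers and insulators. Promoters of broadly used and developmental genes often lie in CpG islands, stretches of DNA that keep their CpG dinucleotides and are usually unmethylated.

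The study profiled a single group, primary Müller cells from healthy B6NCrl mice aged 12 days after birth, with males and females pooled and with no treatment. The 3 biological replicates are separate biosamples under 1 donor label, and the named nuclei protocol is one for cultured cells; no sort or time in culture is named in the labels. The authors deposited 300290, 281205 and 184567 peaks for replicates 1, 2 and 3, of which 75.9%, 63.5% and 60.5% scored 35 or more. They also deposited hotspots, wider domains of raised cleavage that carry a −log10 q value capped at 100, and replicate 3 again had the fewest, 161437 against 269267 and 259229. The read depth behind each list is unknown. All 29 Müller glia genes examined had a promoter peak in every replicate. So did all 16 astrocyte, 20 housekeeping and 26 cell cycle genes, so full counts were not particular to Müller glia. The 19 microglia and macrophage genes had a promoter peak in 19, 19 and 6 cases in replicates 1, 2 and 3. Over all 21646 protein-coding genes the counts were 15727, 15546 and 15086. Whether a different cell makeup or depth plays a part in the sites was not tested.

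The sequences of 8 sites are printed for their high scores or crowded loci, and sites of lower GC content and with no CpG are not among them. Tle3 and Sipa1l3 hold the highest-scoring sites away from promoters, Nectin3 holds a promoter site with the highest score outside annotated UTRs, Cdon and Zic2 hold strong sites that no hotspot of the other replicates covers, and the last lie at loci with many sites. Coordinates are on mm10, and capitals mark each CpG.
Tle3, chr9:61405176-61405325, plus strand: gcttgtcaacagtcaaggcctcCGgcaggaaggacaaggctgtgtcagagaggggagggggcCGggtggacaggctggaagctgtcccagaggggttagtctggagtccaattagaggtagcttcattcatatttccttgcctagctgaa
Sipa1l3, chr7:29392136-29392285, plus strand: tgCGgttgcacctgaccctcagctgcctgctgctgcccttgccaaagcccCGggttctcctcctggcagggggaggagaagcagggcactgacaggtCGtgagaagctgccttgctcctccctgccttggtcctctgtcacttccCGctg
Nectin3, chr16:46497036-46497185, plus strand: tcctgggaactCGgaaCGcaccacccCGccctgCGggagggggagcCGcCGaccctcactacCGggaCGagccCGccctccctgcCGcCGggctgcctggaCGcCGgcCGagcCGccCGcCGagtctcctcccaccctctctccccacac
Cdon, chr9:35421816-35421965, plus strand: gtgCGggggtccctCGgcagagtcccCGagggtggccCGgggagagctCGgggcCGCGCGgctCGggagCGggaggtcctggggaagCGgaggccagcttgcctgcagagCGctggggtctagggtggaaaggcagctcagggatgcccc
Zic2, chr14:122478796-122478945, plus strand: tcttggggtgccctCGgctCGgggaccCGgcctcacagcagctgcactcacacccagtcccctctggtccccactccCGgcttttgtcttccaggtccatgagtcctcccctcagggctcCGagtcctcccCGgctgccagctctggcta
Zbp1 (Pmepa1 intron), chr2:173235676-173235825, plus strand: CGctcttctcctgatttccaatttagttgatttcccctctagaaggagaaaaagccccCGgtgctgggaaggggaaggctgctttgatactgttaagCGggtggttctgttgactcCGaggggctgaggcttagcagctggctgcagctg
Src, chr2:157457976-157458125, plus strand: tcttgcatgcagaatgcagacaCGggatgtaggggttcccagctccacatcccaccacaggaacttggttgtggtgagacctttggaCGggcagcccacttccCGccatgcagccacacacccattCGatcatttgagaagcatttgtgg
Nol4l, chr2:153443856-153444005, plus strand: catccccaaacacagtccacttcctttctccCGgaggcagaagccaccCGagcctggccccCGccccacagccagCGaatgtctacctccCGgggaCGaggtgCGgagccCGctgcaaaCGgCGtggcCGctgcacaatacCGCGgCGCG
The Nectin3 site held 17 CpG in 150 bp and the Tle3 site 2, although the latter was 56.0% GC. Tle3 encodes a Groucho-family corepressor, Sipa1l3 a protein of the Rap GTPase-activating family, Nectin3 a cell adhesion molecule, Cdon a cell surface co-receptor for hedgehog ligands and Zic2 a zinc finger transcription factor.

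Most of the sites, and nearly all of the strong ones, were extra peak calls inside domains that the other replicates also had. Of the 4869 sites, 3014 (61.9%) overlapped a hotspot of replicate 1 and 2692 (55.3%) one of replicate 2. Hotspots of both covered 2562 sites (52.6%), replicate 1 alone covered 452 (9.28%), replicate 2 alone covered 130 (2.67%), and 1725 (35.4%) lay in neither. The share inside a hotspot of either replicate was higher at higher replicate 3 scores, from 44.5% of 2250 sites scoring 35 to 44, through 67.8% at 45 to 59, 92.6% at 60 to 79 and 99.2% at 80 to 99, to all 244 sites scoring 100 or more. The exact binomial 95% interval of the lowest band was 42.4% to 46.6%, and it covers counting error only. Where the sites lay in hotspots of the other replicates, 91.7% of those of replicate 1 and 90.7% of those of replicate 2 were at the cap.

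**Figure D1:**
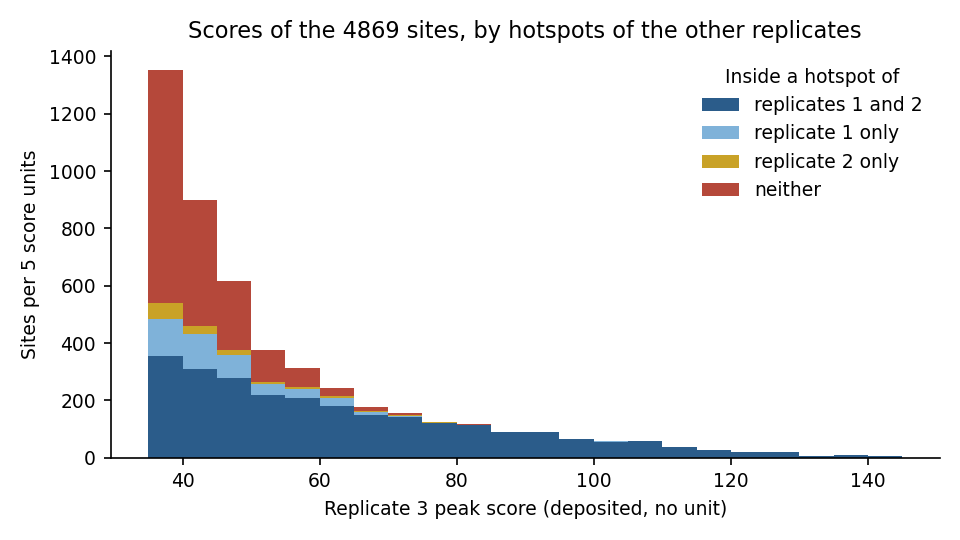
Number of sites in each 5-unit band of the deposited replicate 3 peak score, split by the hotspots of replicates 1 and 2 that cover them. The 1725 sites in neither reach a score of 82 at most, while sites in hotspots of both extend to 145.

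The other classes of single-replicate sites differed in this respect. Of the 15097 regions called in replicate 3 alone with a score under 35, 24.0% overlapped a hotspot of replicate 1 or 2. Of the 13842 regions called in replicate 1 alone at 35 or more, 23.5% overlapped a hotspot of replicate 2 or 3, and for the 4282 of replicate 2 alone the share of replicate 1 or 3 was 52.5%. Replicate 3 has fewer hotspots than the others, so these shares are not on the same footing. At the score threshold itself, 34.6% of the 332 replicate 3 regions scoring 34 and 34.5% of the 330 scoring 35 were inside a hotspot of another replicate, and 22.9% and 28.2% were at promoters. The promoter share was 24.0%, 20.9% and 22.1% at scores of 36, 37 and 38, so it did not step up at the threshold.

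The sites lay close to peaks of the other replicates, though gaps were not compared with those of other classes of regions. The gap from a site to the nearest replicate 1 or 2 peak had a median of 130 bp, less than the 150 bp length of 1 peak, and was at most 150 bp at 60.5% of sites. In hotspots of both other replicates the median gap was 70 bp and the largest 650 bp. In no hotspot of either the median gap was 410 bp, and at 96 sites, all of that kind, the gap passed 5 kb. Even so, 388 of these 1725 sites (22.5%) were within 150 bp of a replicate 1 or 2 peak. Only 771 sites had no replicate 1 or 2 peak within 500 bp, and 0.778% of those overlapped a hotspot of either replicate. The neighbourhood was also dense: the median site had 5 merged regions within 5 kb, against 3 for sites of all 3 replicates and 2 for all merged regions.

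**Figure D2:**
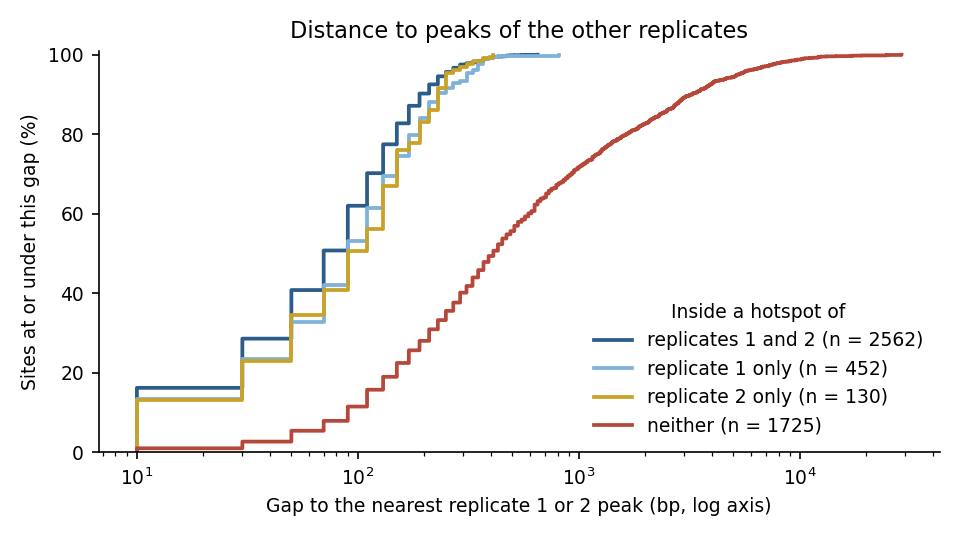
Cumulative share of sites by the gap in bp (log axis) to the nearest peak of replicate 1 or 2, with a line for each hotspot class. The lines for sites inside a hotspot of another replicate reach 100% within 1 kb, while the line for sites in neither has its median at 410 bp and extends to 28810 bp.

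Promoters were common among the sites. A protein-coding start site lay within 1 kb of 1687 sites, or 34.6% (exact binomial 95% interval 33.3% to 36.0%). The share was 22.9% for the 100409 regions called in all 3 replicates with a replicate 3 score of 35 or more, 15% for replicate 1 alone, 25.4% for replicate 2 alone, 11.5% for the 43020 regions of replicates 1 and 2 without 3, and 13.3% for all merged regions. For the weaker regions of replicate 3 alone, with scores under 35, the share was 13.6%. Among the sites it was higher at higher scores, from 26.1% at 35 to 44 to 68.0% at 100 or more. It was 37.5% in hotspots of both other replicates and 27.4% in neither, and it was 16.9% of the 771 sites more than 500 bp from any replicate 1 or 2 peak. By the annotation 19.4% of the sites had their centre in an exon, 48.6% in an intron and 32% between genes, against 7.61%, 44.3% and 48.1% of all merged regions.

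The promoter sites sat beside the start site and mostly within the transcribed side. Their centres were a median 339 bp from the nearest start, with 20.7% within 150 bp, 21.6% farther upstream and 57.7% farther downstream. Promoter regions of all 3 replicates had a median of 109 bp, with 56.0% within 150 bp, 16.6% farther upstream and 27.4% farther downstream. By construction a site cannot overlap a shared peak, which often takes the start site itself. A promoter site was found at 1591 of 21646 protein-coding genes (7.35%), and 1479 of those genes (93.0%) also had a promoter region of all 3 replicates. Over all 21646 protein-coding genes, 14524 (67.1%) had such a region.

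**Figure D3:**
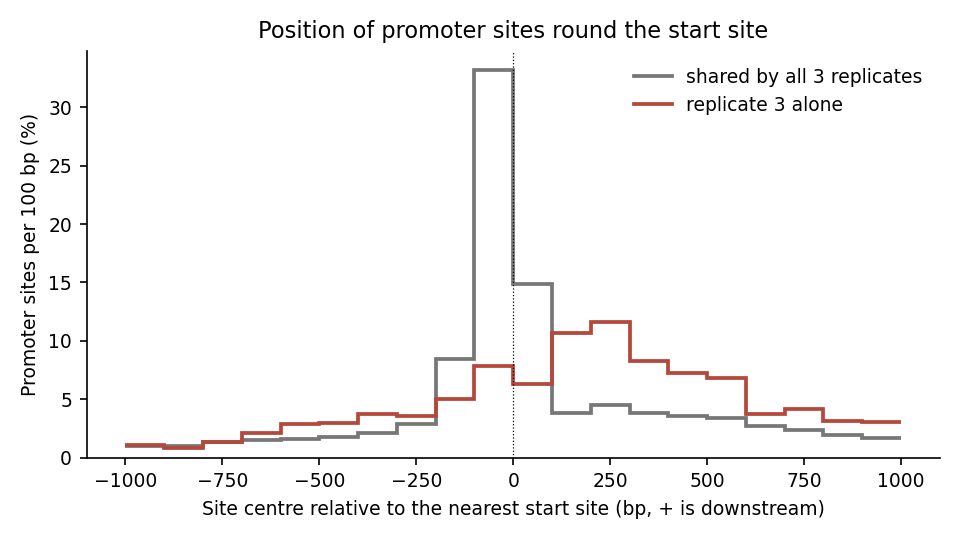
Share of promoter sites per 100 bp of distance between the site centre and the nearest start site, with positive values downstream, for sites of replicate 3 alone (red) and regions of all 3 replicates (grey). The shared regions peak just upstream of the start, while 11.6% of the replicate 3 sites fall in the band 200 to 300 bp downstream.

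The 10 highest-scoring promoter sites scored 136 to 145, and all 10 lay in hotspots of replicates 1 and 2 at the cap, at 10 to 150 bp from a peak of those replicates. The highest was in an exon of Egr1, an immediate early transcription factor, with a score of 145 on chromosome 18. Nectin3 and Ankrd10 followed at 142. Tarbp2, a partner of Dicer, Gsk3b, a kinase that restrains Wnt signalling, and Abtb1 each had a site scoring 140. Garnl3 and Napa, a SNARE adaptor, had 138, Mgat1, an enzyme of N-glycan synthesis, had 137, and Ehbp1 had 136. Each of these sites was thus a further call beside a peak of the other replicates.

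The 10 highest-scoring distal sites, those more than 1 kb from a protein-coding start, scored 124 to 139, and all 10 also lay in hotspots of both other replicates at the cap. After the Tle3 and Sipa1l3 sites came one in an intron of Nfib at chr4:82506856-82507005 with a score of 134. Nfib is a nuclear factor I gene of late progenitors and glia, and this site was 1086 bp from its nearest annotated start. Sites scoring 128 and 127 lay between genes with Hils1 and Sall3 as the nearest starts, the latter 265425 bp away. The remaining sites, with Txndc2, Vps37b, Ppara, Bmp1 and Ass1 as the nearest starts, scored 124 to 126. The Txndc2 site lay in an intron of Rab31, 59548 bp from the Txndc2 start, and the Ass1 site in an intron of Hmcn2, 20802 bp away. The Ppara site lay between genes, 65379 bp away.

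The sites held more CpG than the other classes of regions, though most were not rich in it. The ratio of observed to expected CpG had a median of 0.36 (interquartile range 0.184 to 0.649), against 0.274 in regions of all 3 replicates, 0.21 in replicate 1 alone, 0.26 in replicate 2 alone and 0.208 in all merged regions. In regions of replicate 3 alone with scores under 35 it was 0.223. A ratio of 0.6 or more was found at 28.6% of the sites, 20.7% of regions of all 3 replicates and 10.6% of all merged regions. The median GC content was 57.3%, against 52.1% in regions of all 3 replicates. Set within promoters the order turned: the ratio was 0.657 at promoter sites and 0.759 at shared promoter regions. Away from promoters it was 0.259 and 0.217, and 13.7% of distal sites had a ratio of 0.6 or more against 6.61% of distal shared regions. Sites in hotspots of both other replicates and sites in neither had like medians, 0.361 and 0.35. Soft-masked repeats made up a mean 11.6% of the sites' bases, close to the 11.4% of all merged regions and above the 8.06% of regions of all 3 replicates.

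Motifs that were common in the shared regions were scarcer in the sites of replicate 3 alone. Each motif was searched on both strands in 150 bp round the centre, and promoters were set aside. The AP-1 motif TGANTCA, bound by Jun and Fos family proteins, was in 4.90% of 3182 distal sites, against 21.3% of 77433 distal regions of all 3 replicates and 19% of all distal merged regions. The weaker distal regions of replicate 3 alone, with scores under 35, also had a low share, 6.77%. It was 17.8% in distal regions of replicate 1 alone and 16.4% in those of replicate 2 alone, both at 35 or more. The TEAD motif GGAATG, read by the factors of the Hippo pathway, was in 12.4% of distal sites and 20.1% of shared distal regions. The short nuclear factor I motif TTGGCA stood at 11.1% and 18.5%, RUNX TGTGGTT at 2.80% and 6.85%, and the homeodomain core TAATTA at 2.77% and 6.11%. For E-boxes, read by basic helix-loop-helix factors, the gap was smaller, with 12.0% and 14.4% for CAGCTG.

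Some motifs stood higher in the distal sites than in the shared distal regions. The SP and KLF motif GGGCGG was in 14.3% of distal sites and 7.14% of shared distal regions, in 7.76% of the weaker distal regions of replicate 3 alone, and in 2.52% and 4.07% of distal regions of replicate 1 alone and of replicate 2 alone. The core AGGGGGC of the CTCF motif was in 5.59% of distal sites, 4.64% of shared distal regions, 3.69% of the weaker regions of replicate 3 alone, and 1.8% and 2.25% of distal regions of replicate 1 alone and of replicate 2 alone. Distal sites in no hotspot of another replicate stood at 3.99% for AP-1 and 19.2% for SP and KLF.

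The difference in AP-1 was also present within bands of base composition and of score. In distal sites with a GC content of 40 to 50% its share was 7.16% against 24.8% of shared distal regions of the same GC, at 50 to 60% GC it was 5.37% against 19.2%, and at 60 to 70% GC it was 1.54% against 10.6%. With replicate 3 scores of 35 to 59 the shares were 4.79% and 20.3%, and with scores of 60 or more 5.37% and 22.3%. The gap in the homeodomain core was smaller within bands of GC, at 5.82% against 8.55% for 40 to 50% GC and 2.22% against 3.01% for 50 to 60%. For SP and KLF the order did depend on GC. Their motif stood at 6.87% against 2.35% at 40 to 50% GC and 12.5% against 7.82% at 50 to 60%. At 60 to 70% GC the order was reversed, with 23.4% against 27.3%. By score it stood at 14.0% against 4.92% for 35 to 59 and 15.6% against 9.67% for 60 or more. The CTCF core was not examined within such bands. Distance from other peaks made little difference to AP-1, at 4.88% of distal sites within 150 bp of a replicate 1 or 2 peak and 6.37% of those more than 1 kb away. In windows 1 kb from all sites that held no peak, AP-1 was in 3.36%, and in the sites themselves, promoters included, in 3.49%. These bands were added after the values were seen. At promoter sites the ETS motif CCGGAAG was in 2.25% against 8.74% of shared promoter regions, and the SP and KLF motif in 32.2% against 47.7%.

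**Figure D4:**
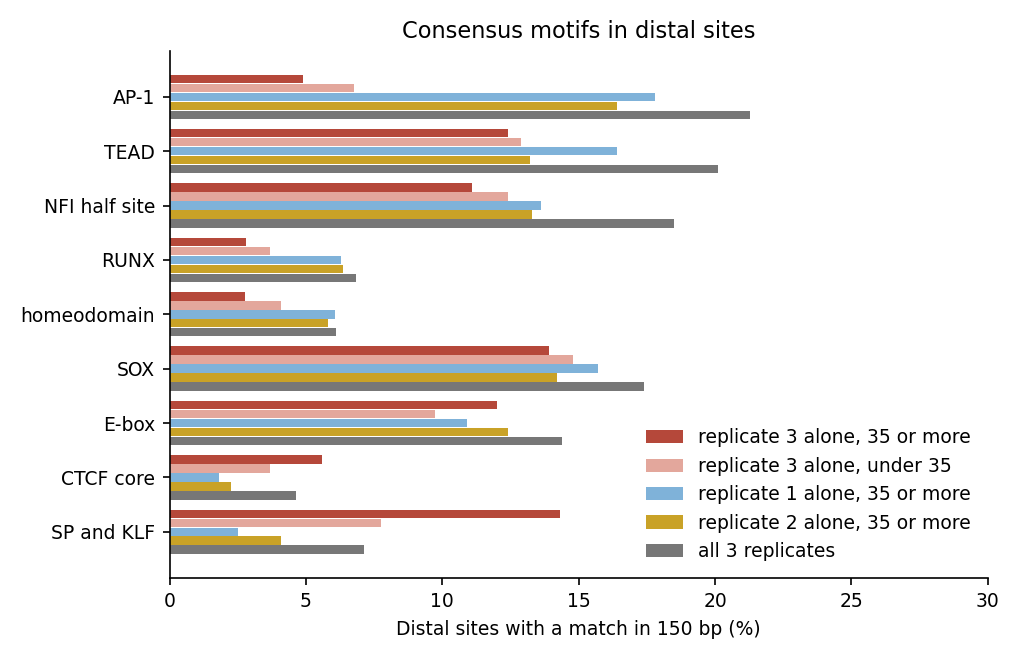
Percentage of distal sites with a match to each consensus motif in 150 bp, for regions of replicate 3 alone with scores of 35 or more and under 35, of replicate 1 alone, of replicate 2 alone and of all 3 replicates (the E-box is the CAGCTG form). AP-1 stands at 4.90% and 6.77% in the stronger and weaker regions of replicate 3 alone and between 16.4% and 21.3% in the other classes shown, and SP and KLF is highest in the stronger regions of replicate 3 alone at 14.3%.

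The 1725 sites outside every hotspot of replicates 1 and 2 were weaker, with a median score of 40 and none above 82. Their own replicate 3 hotspot was at the cap in 30.3% of cases, with a median −log10 q of 3.76, while 81.6% of sites in hotspots of both other replicates were at the cap. The strongest, chosen after their values were seen, was in an exon of Nfix, another nuclear factor I gene, with a score of 82 at chr8:84773456-84773605. A further site nearest to G430095P16Rik, which lies in the body of Nfix, scored 75. The Cdon and Zic2 sites followed the first at 80, and Rhbg, an ammonium transporter gene, had the nearest start to a site scoring 78. Espn, which encodes an actin-bundling protein, and Mid1 had sites scoring 73, and Rrm2, Nol4l and Rara each had one scoring 72.

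The sites had a protein-coding start within 100 kb in 4344 cases, with 3094 genes as the nearest (14.3% of 21646), and those in no hotspot of another replicate had 1176 (5.43%). A single site was nearest to 2315 of these genes, 736 genes had 2 to 4, and 43 had 5 or more. When sites up to 5 kb apart were joined, 79.3% stood alone and 10 groups held 5 or more. The genes with the most sites are described next, and in several of them every site lay outside the hotspots of replicates 1 and 2. Of replicate 3 regions scoring 35 or more, sites were 13 of 36 at Zbp1, 12 of 32 at Src and 11 of 49 at Smad7. They were 10 of 24 at Nol4l, 7 of 12 at Eomes, 7 of 30 at Hmx1, 8 of 64 at Sept9 and 6 of 67 at Nav2. Over all genes they were 4344 of 90029 (4.83%), and these genes were chosen for their many sites.

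Zbp1, a sensor of nucleic acids, had the nearest start for 13 sites, the most of any gene. Of these, 11 formed the largest group, at chr2:173228056-173241545, and that stretch lies in the body of the neighbouring gene Pmepa1, an inhibitor of TGF-β signalling. In genome order the 3 of them nearest to Zbp1 scored 43, 35 and 73 and were in hotspots of both other replicates, and the next 8 scored 58, 43, 43, 42, 42, 53, 56 and 54 and were in none. The stretch held 29 merged regions, of which 18 had a replicate 1 or 2 peak, so the sites were interleaved with regions called in the other replicates.

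Src, a tyrosine kinase gene, had 12 sites, all outside the hotspots of the other replicates. In genome order they scored 45, 38, 43, 46, 40, 37, 46, 41, 48, 42, 37 and 44, over 56.4 kb. These scores were in a narrow range, and none reached 50. The deposited lists tell of calls and not of read counts, so a level of cleavage below the call in replicates 1 and 2 was not measured here.

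Eomes and Hmx1, transcription factor genes of the eye, showed the same arrangement. Eomes, a T-box factor of a class of retinal ganglion cells, had 7 sites scoring 44, 39, 45, 53, 39, 42 and 55, from upstream of its start to beyond its end. Hmx1, a homeobox gene of eye and ear development, had 7 sites scoring 53, 60, 61, 71, 44, 40 and 49. All 14 lay outside the hotspots of replicates 1 and 2. At Eomes 2 of the 7, and at Hmx1 3 of the 7, were in replicate 3 hotspots at the cap.

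Smad7, an inhibitor of TGF-β signalling on chromosome 18, had 11 sites within 100 kb, 10 of them in no hotspot of the other replicates, with scores of 42 to 60. Nol4l had 10 with scores of 36 to 102, and 8 were in no such hotspot. The septin gene Sept9 had 8, with 5 in none. Rara, a retinoic acid receptor gene, had 7 scoring 40 to 100, and 6 were in none. Other loci leaned the other way: of 7 sites each at Irf2bp2, a corepressor gene, and Arid5b, 5 lay in hotspots of both other replicates. Sipa1l3 had 7 sites and Prox1, Nav2 and Msi2 had 6 each, with a mixture of both kinds.

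The gene lists of retinal cell types and pathways were read as the share of each list's replicate 3 regions of score 35 or more that no other replicate had, since genes differ in how many regions surround them. Over all protein-coding genes this share was 4.83%, or 4344 of 90029 regions. Retinal progenitor genes had 51 of 448 regions (11.4%), amacrine and horizontal cell genes 26 of 217 (12.0%), and Müller glia genes 36 of 458 (7.86%). Lens, ciliary body and cornea genes had 16 of 144 (11.1%), and retinal ganglion cell genes 13 of 131 (9.92%), of which 7 were at Eomes alone. Rod genes had 3 of 88 (3.41%), cone genes 2 of 76 (2.63%) and housekeeping genes 2 of 87 (2.30%). Counts per list are small and several genes stand in more than 1 list, so these shares are given without an order being read from them.

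**Figure D5:**
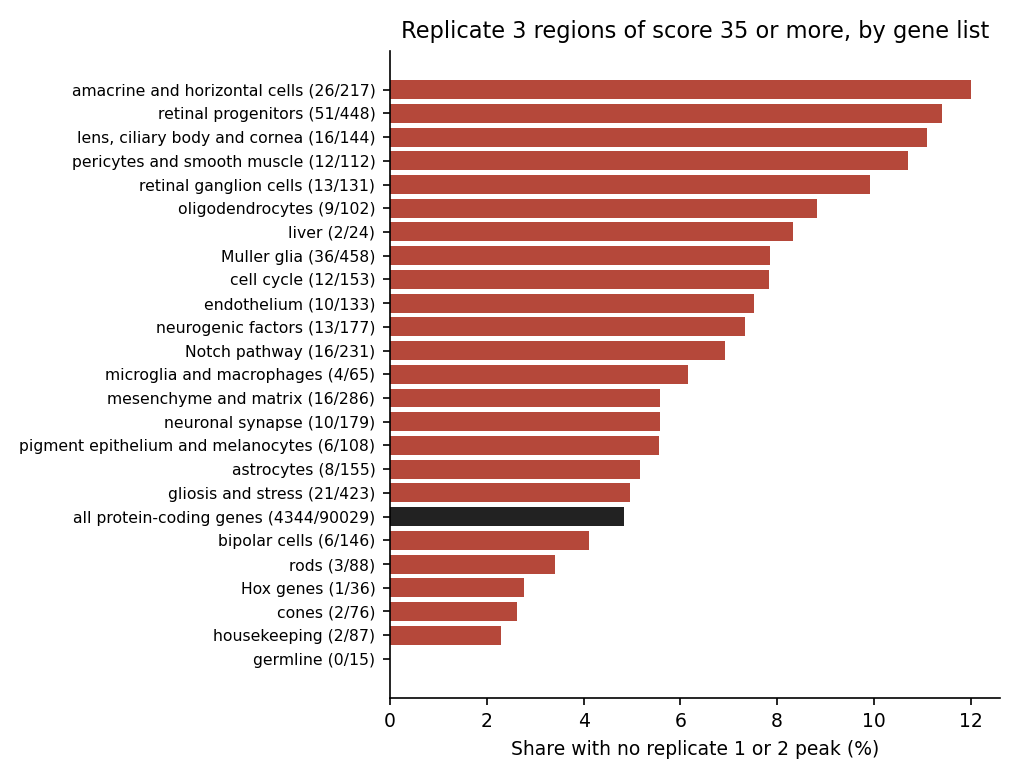
Share of each gene list's replicate 3 regions of score 35 or more that had no replicate 1 or 2 peak, with sites and regions in brackets after each list name and the value for all protein-coding genes in black. Progenitor and amacrine and horizontal cell genes stand at 11.4% and 12.0%, all genes at 4.83%, and housekeeping genes at 2.30%.

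Among retinal progenitor genes 20 of 24 (83.3%) had the nearest start to a site within 100 kb, against 14.3% of all genes. These genes also lie among more regions, with 448 replicate 3 regions of score 35 or more at 24 genes against 90029 at 21646. Per region the shares were 11.4% and 4.83%, a smaller contrast. Lhx2, a LIM homeodomain factor also listed for Müller glia, had 6 sites scoring 35 to 59, of which 4 were in no hotspot of the other replicates. Meis1, a TALE homeodomain factor, had 6 sites scoring 38 to 65, none of them outside those hotspots. Sfrp2, a secreted Wnt modulator, had 4 sites scoring 39 to 58, all outside. Zic2 had 2 at 66 and 80 and Zic1 had 1 at 70, all outside. The Zic2 site of 80 was nonetheless 50 bp from a replicate 1 or 2 peak.

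Among Müller glia genes 15 of 29 (51.7%) had a site, against 14.3% of all genes. These genes also lie among more regions, with 458 replicate 3 regions of score 35 or more at 29 genes against 90029 at 21646. Per region the shares were 7.86% and 4.83%. Slc1a3, the glial glutamate transporter, had 4 scoring 43 to 90, and Nfib had 4 scoring 37 to 134. Sox2, a factor that keeps progenitor and glial identity, had 4 scoring 42 to 62, and Hes1, a Notch effector, had 3 scoring 38 to 111, and all of these were in hotspots of both other replicates. Vim, the intermediate filament gene vimentin, had 1 promoter site of score 127, and Sox9 had 2, of 37 and 96. Of the 36 sites at these genes, 16 lay in no hotspot of replicate 1 or 2.

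The Notch pathway had 16 of 231 regions (6.93%, against 4.83% over all genes), at 11 of 20 genes (55.0%, against 14.3% of all genes). Among these genes were Nrarp, a feedback inhibitor, with 3 scoring 47 to 94, and Hey2, an effector, with a promoter site of 107. Dll1, a ligand, had a promoter site of 92. Genes of gliosis and stress had 21 sites of 423 regions (4.96%), close to the share over all genes. Their promoter sites included those of Stat3 at 129 and Socs3 at 126, a signal transducer of cytokines and its inhibitor, and of Gfap, the filament gene of reactive glia, at 70, each in hotspots of both other replicates. Fosb had 4 sites, 3 of them in no such hotspot. In amacrine and horizontal cell genes the most sites were at Prox1, a homeobox factor of horizontal cells, with 6 scoring 38 to 122.

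Genes of other cell types that a retinal preparation could hold had sites too. Microglia and macrophage genes had 4 of 65 regions (6.15%, near the 4.83% over all genes), none of them at a promoter. These lay at 3 of 19 genes (15.8%, near the 14.3% of all genes), with 53 and 55 at Ly86, 37 at Spi1 and 55 at Laptm5. Endothelial genes had 10 of 133 regions (7.52%), 4 of them at Sox18, an endothelial transcription factor, scoring 37 to 45. Pericyte and smooth muscle genes had 12 of 112 (10.7%), with 3 each at Pdgfrb, Foxc1 and Mcam. Oligodendrocyte genes had 9 of 102 (8.82%). Of genes from outside the eye, liver genes had 2 of 24 regions (8.33%) and germline genes 0 of 15, too few regions for a share to be read.

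A small set of promoters had a peak in replicate 3 only. Of the 1591 genes with a promoter site, 33 (2.07%) had no promoter peak in replicate 1 or 2, and these were singled out after the values were seen. Their promoter sites scored 35 to 64, and at 32 of the 33 no hotspot of replicate 1 or 2 covered them. This lack of cover follows largely from the choice of genes without such peaks and is no separate support. Of the 771 sites with no replicate 1 or 2 peak within 500 bp, only 0.778% overlapped a hotspot of either. The median CpG ratio of these promoter sites, taken per gene, was 0.717. Examples follow, with no theme read from them, since they were picked by hand and lean to developmental genes. Shh, the hedgehog ligand, had a site of score 58 at chr5:28466796-28466945, in a replicate 3 hotspot at the cap and 1530 bp from the nearest replicate 1 or 2 peak. Sfrp2 had 2 promoter sites, of 42 and 58, and Eomes 3, of 39 to 53. The paired-box gene Pax3 had one of 55 and the AP-2 gene Tfap2b one of 51, and Nkx3-2, Myod1, Foxb1, Hmx3 and Sim2, all developmental transcription factor genes, had one each of 36 to 50. Bmp4, a growth factor gene of the early eye, had one of 36. Gfi1, a zinc finger repressor gene, had 3, of 35 to 48, in replicate 3 hotspots at the cap. The highest of the 33 was Syngr3, a synaptic vesicle gene, at 64. The set also held genes of other kinds, among them the channel genes Aqp2 at 37 and Kcnj6 at 36. Further ones were Sstr1 and Clvs2 at 48, Gsg1l at 41, Dsc3 at 39, and Slc10a4 and Cacng5 at 35.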

How the data were processed

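DNase-seq peaks and hotspots were analysed for 3 replicates of 1 group, each list derived from 1 library, per the deposited descriptions. The authors deposited peaks with a score of 1 to 150, whose meaning is not stated, and hotspots with a −log10 q value capped at 100; below the cap, replicate 3 hotspots reach at most 6.0. No aligner, caller or version is given in the sources used here. Read depth is unknown, so only counting intervals are given. Coordinates are on mm10, and every chromosome end lay within the lengths of the genome used.

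Repeated peak positions were removed (21, 20 and 23), and peaks were merged in Python 3.11.15 with pandas 2.3.3 and numpy 2.4.6. Start sites came from 21646 protein-coding genes of GENCODE M21, and sequence from the soft-masked mm10 genome of RefSeq. CpG ratios were taken over each region. A total of 24 gene lists and 28 motifs were used. The sites, lists and motifs were chosen with earlier results of these data known. Named genes were the 10 highest promoter and 10 highest distal sites, the 15 genes with most sites, and examples from those that each list offers with a promoter site or, ties included, the 2 highest numbers of sites; other names were chosen after their values were seen. Intervals are exact binomial (scipy 1.17.1). Interval operations were tested on simulated data. A gene that the naming rule picked is not reported here.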

Additional observations from a re-analysis of the deposited data

How the results depend on the processing

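With a score minimum of 25 there were 9411 sites, of which 27.2% were at promoters and 48.8% in a hotspot of replicate 1 or 2, with a median CpG ratio of 0.313, 4981 nearest genes and AP-1 in 4.34%. With a minimum of 50 there were 2001, with 46.3%, 88.3%, 0.457 and 1535 in the same order. Where only an overlap of 75 bp counted as shared there were 11843, with 31.7%, 85.0%, 0.34, 5883 and AP-1 in 4.80%. With no replicate 1 or 2 peak within 500 bp there were 771, with 16.9%, 0.778%, 0.329, 572 and AP-1 in 4.93%. With the same number of strongest peaks from each replicate there were 8863, with 32.8%, 80.3%, 5072 genes and AP-1 in 4.75%. Leaving out replicate 1 or replicate 2 gave 7348 to 7903 sites, 34.5% to 36.5% at promoters, CpG ratios of 0.357 to 0.384, 76.4% to 78.0% in a hotspot, 4257 to 4491 genes and AP-1 in 3.95% to 4.10%. Promoters were 25.8% within 500 bp, 43.0% within 2500 bp and 42.7% with the start sites of all annotated genes. An overlap of 75 bp with a hotspot left 58.3%. AP-1 was in 7.16%, 5.37% and 1.54% of distal sites of 40 to 50%, 50 to 60% and 60 to 70% GC, and in 4.79% and 5.37% of those scoring 35 to 59 and 60 or more. The number of sites moved by over 1.5 times under every alternative to the selection except keeping repeated positions, so it is a count under 1 rule and not a number of replicate 3 sites as such. No paired analysis was possible because the study has 1 group. Depth is unknown, so a missing peak in replicate 1 or 2 is a missing call.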

Other observations

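The PU.1 motif GAGGAAGT, read by a factor of microglia and other myeloid cells, was in 0.974% of the distal sites of replicate 3 alone, 1.23% of distal regions of all 3 replicates, 2.19% of distal regions of replicate 1 alone and 3.57% of those of replicate 2 alone. At promoter sites the NRF1 motif GCGCATGCG was in 4 of 1687 (0.237%) against 1.60% of shared promoter regions.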
